A study of Homo sapiens with 16 samples.

Results

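The OAS family was followed through the differentiation of THP-1 cells with and without hairpins against DNA methylation enzymes. THP-1 is a human monocytic leukemia line that carries the MLL-AF9 fusion and turns into macrophages when treated with phorbol-12-myristate-13-acetate (PMA). The family comprised OAS1, OAS2, OAS3 and OASL, that is 4 of the 60676 genes in the table, and all 4 passed the filter on low counts. They were looked up by gene symbol, but the family was selected on earlier results of these counts, in which interferon-induced genes changed with PMA and with the hairpins. The levels and fold changes of the members are therefore a description, the calls of the test on them are no independent evidence, and the shares of all genes called stand beside them without being read against them.

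OAS proteins sense double-stranded RNA. Once bound to it, OAS1, OAS2 and OAS3 join ATP into short oligoadenylates with an unusual linkage, known as 2-5A, a messenger of the antiviral response. OASL has lost the synthetase activity, carries ubiquitin-like repeats and is known to enhance signaling by the RNA sensor RIG-I. The genes are classic targets of type I interferon, which acts through the receptor chains IFNAR1 and IFNAR2, the kinases JAK1 and TYK2, and the transcription factor complex ISGF3. Monocytes and macrophages hold them at a resting level that interferon raises.

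RNA sequencing counts were read for 16 libraries in 8 groups of 2. The lines were labelled shNC (a control hairpin), shUHRF1, shDNMT1 and shDNMT3B, after the methylation maintenance factor UHRF1, the maintenance methyltransferase DNMT1 and the de novo methyltransferase DNMT3B. All 4 lines, the control included, carried a pLKO.1 lentiviral hairpin and had been selected with puromycin. Whether a line was a pool or a clone is not given in the sources used here. Each line was kept for 48 h in DMSO, the vehicle, or in 100 ng/ml PMA. Nothing says that the 2 libraries of a group came from separate cultures, so the spread between them may be technical.

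Library totals ran from 20384066 to 23151864 counts in the libraries numbered 1 and from 13883556 to 15679327 in those numbered 2. The mitochondrial share of counts was 7.71 to 29% in the former and 3.92 to 14.5% in the latter. For 12 of the 16 samples GEO's description names another condition than the title, and each column was read by the condition in its own name. No hairpin target was called lower in its own line: UHRF1 was at 87.1 and 123 CPM in shNC and 72.0 and 91.2 in shUHRF1 cells in DMSO (log2 fold change -0.36 ± 0.26 SE, edgeR quasi-likelihood test, adjusted p = 0.61). DNMT1 differed by -0.25 ± 0.30 in the shDNMT1 line (adjusted p = 0.79) and DNMT3B by -0.48 ± 0.19 in the shDNMT3B line (adjusted p = 0.21). After PMA, DNMT3B was higher in its own line by 1.06 ± 0.23 (adjusted p = 0.0069), UHRF1 differed by 0.87 ± 0.29 (adjusted p = 0.13) and DNMT1 by 0.45 ± 0.30 (adjusted p = 0.38). With the replicate number as a block, UHRF1 and DNMT1 were called higher in their own lines after PMA too (edgeR, adjusted p = 3.8e-04 and 0.0042), and in DMSO none of the 3 targets was called in its own line (adjusted p = 0.052, 0.20 and 0.076 for UHRF1, DNMT1 and DNMT3B). These are RNA levels. The paper reports western blots of the target proteins for knockdown efficiency, and protein was not measured in these counts. The line names below are therefore those of the labels. Monocyte and macrophage markers were present throughout, with a summed level of 930 to 1269 CPM over 10 genes in DMSO and 2578 to 3391 CPM in PMA, and 6 T cell markers summed to 0.312 to 1.32 CPM in DMSO and 11.9 to 20.7 in PMA. TRAC made up nearly all of the latter sum (0.368 and 0.797 CPM in shNC cells in DMSO, 18.3 and 19.4 in PMA), while CD3D, CD3E, CD3G and CD2 had no count in any PMA library and CD5 had at most 2. The other lists also read higher with PMA at their top end, namely 5 B cell markers (6.41 to 15.6 CPM in DMSO, 7.25 to 32.8 in PMA), 5 NK cell markers (34.7 to 78.9, 66.0 to 231), 5 megakaryocyte markers (0.631 to 2.29, 3.49 to 11.8), 4 plasmacytoid dendritic cell markers (15.3 to 32.5, 37.9 to 72.9) and 6 fibroblast and epithelial markers (0.676 to 4.07, 3.35 to 11.6), and their part in the PMA responses was not tested. The 8 erythroid markers summed to 0 to 492 CPM in DMSO and at most 0.340 in PMA, of which shNC DMSO replicate 1 held the top value, with 4413 counts of HBB and 3493 of HBA2 against none in replicate 2.

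OAS1, OAS3 and OAS2 lie side by side on one strand, and OASL lies apart. In hg38 (GENCODE release 44), OAS1 (ENSG00000089127) spans chr12:112905856-112933219, OAS3 (ENSG00000111331) chr12:112938051-112976460 and OAS2 (ENSG00000111335) chr12:112978395-113011723, all on the plus strand. The 3 genes fill 105.868 kb, with gaps of 4.832 kb between OAS1 and OAS3 and 1.935 kb between OAS3 and OAS2. OASL (ENSG00000135114) lies at chr12:121017763-121039246 on the minus strand, 8.01 Mb beyond the end of OAS2. The main transcripts (MANE Select) have 1631 bases in 6 exons for OAS1, 4622 in 10 for OAS2, 6599 in 16 for OAS3 and 3270 in 6 for OASL, and the counts cover whole genes, so they do not separate isoforms. An antisense RNA gene, ENSG00000257452, overlaps OAS1, OAS2 and OAS3 on the other strand and had 0 counts in every library. The strand setting of the counting is not given in the sources used here, so reads of the 2 strands may have been pooled.

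Promoters of 2 of the 4 members, OAS1 and OAS3, were at hand from RefSeq (GRCh38.p14, 250 bases before and 50 after the annotated start). Both windows lie inside the GENCODE gene spans given above, because the RefSeq starts lie downstream of where those spans begin. Positions below are counted from the RefSeq starts, and sequence before the GENCODE spans was not examined. OAS2 and OASL had no entry. Both sequences are shown because the levels of the adjacent genes shifted together with PMA and between the lines in DMSO, and because their promoters differ in base make-up. Capitals mark matches to the core of an interferon-stimulated response element, written GAAANNGAAA on either strand, and the longest run of letters that both promoters share.
OAS1 promoter, chr12:112906712-112907011, plus strand: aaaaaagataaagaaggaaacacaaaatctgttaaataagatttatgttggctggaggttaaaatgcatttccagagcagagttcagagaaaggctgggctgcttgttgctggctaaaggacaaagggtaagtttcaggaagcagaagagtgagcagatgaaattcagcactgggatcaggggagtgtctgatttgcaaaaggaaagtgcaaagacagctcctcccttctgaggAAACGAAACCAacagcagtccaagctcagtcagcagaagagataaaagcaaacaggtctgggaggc
OAS3 promoter, chr12:112938224-112938523, plus strand: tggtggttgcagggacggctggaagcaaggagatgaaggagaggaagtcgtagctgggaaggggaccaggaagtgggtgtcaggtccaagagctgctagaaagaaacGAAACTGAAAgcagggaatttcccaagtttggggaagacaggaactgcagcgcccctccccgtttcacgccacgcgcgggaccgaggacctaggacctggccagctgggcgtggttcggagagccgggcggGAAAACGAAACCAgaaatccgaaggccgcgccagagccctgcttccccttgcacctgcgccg
The OAS3 promoter held 2 matches, GAAACTGAAA starting at base -143 and GAAAACGAAA at -12 from the start, on the plus strand. That pattern was found in 1255 of 35116 promoters of the same length (3.57%). The OAS1 promoter held no match to these letters, which says nothing on the factors that bind there. A second pattern, TTCNNNGAA, the palindrome of gamma-activated sites, was found once in the OAS1 promoter, at -168, and in 2689 of 35116 promoters (7.66%). The shared run AAACGAAACCA, of 11 letters, began at -16 in OAS1 and at -10 in OAS3, where it overlaps the second match. It was chosen as the longest run in common, and 4 of 35116 promoters held it. The OAS1 promoter held 1 CpG, the dinucleotide that DNMT1 and DNMT3B methylate, and 3.96% of all promoters held fewer. The OAS3 promoter held 20, and 58.8% of promoters held fewer (median over all 14). GC content was 44% for OAS1 and 61.3% for OAS3. Methylation itself was not measured in these files, and a link of it to OAS levels was not tested. The paper's methylation arrays of knockdown cells showed globally lower methylation with DNMT1 depleted. It reports no significant effect for UHRF1 or DNMT3B.

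In DMSO, the control line held far more OAS RNA than the other lines. OAS1, the synthetase with a single catalytic unit, was at 79.4 and 65.5 CPM (counts scaled to a common library size, TMM-normalized) in the libraries of shNC numbered 1 and 2, in that order. It was at 20.3 and 18.8 CPM in shUHRF1, 3.58 and 2.96 in shDNMT1 and 4.23 and 2.95 in shDNMT3B cells. The 2 shNC libraries lay above all others, the shUHRF1 libraries in between, and those of shDNMT1 and shDNMT3B overlapped at the bottom. OAS2, whose protein joins a pair of OAS units, was at 239.9 and 236 CPM in shNC and 39.0 and 48.2 in shUHRF1 cells. It was at 7.17 and 8.47 CPM in shDNMT1 and 10.9 and 9.87 in shDNMT3B cells, so that no group overlapped another. OAS3, the largest synthetase and the one most sensitive to long double-stranded RNA, showed the same order. Its level was 285 and 298 CPM in shNC, 67.7 and 72.8 in shUHRF1, 13.6 and 11.9 in shDNMT1 and 15.9 and 16.3 in shDNMT3B cells. OASL was the least counted member, at 28.3 and 20.0 CPM in shNC and 6.29 and 5.18 in shUHRF1 cells. In shDNMT1 (3.42 and 1.66 CPM) and shDNMT3B cells (3.33 and 1.63) its libraries overlapped, and these rest on 32 to 63 counts per library.

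After PMA, the 4 lines lay closer together for each member. OAS1 was at 497 and 389 CPM in shNC, 493 and 388 in shUHRF1, 509.7 and 419 in shDNMT1 and 365 and 318 in shDNMT3B cells. The first 3 lines overlapped, and both shDNMT3B libraries lay below all others. OAS2 was at 655 and 578 CPM in shNC, 473 and 470.0 in shUHRF1, 548 and 568 in shDNMT1 and 429 and 403 in shDNMT3B cells, without overlap between groups. OAS3 was at 1111 and 1082 CPM in shNC, 932 and 1034 in shUHRF1, 1049 and 1165 in shDNMT1 and 748 and 795 in shDNMT3B cells, where again the last line was lowest and shNC overlapped shDNMT1. OASL was at 162 and 135 CPM in shNC, 195 and 143 in shUHRF1, 186 and 139 in shDNMT1 and 176 and 134 in shDNMT3B cells. All 4 lines overlapped for OASL, and in each the library numbered 1 was the higher. For every member, each PMA library lay above each DMSO library. In these bulk libraries, fewer cells with a transcript and less of it per cell cannot be told apart.

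**Figure D1:**
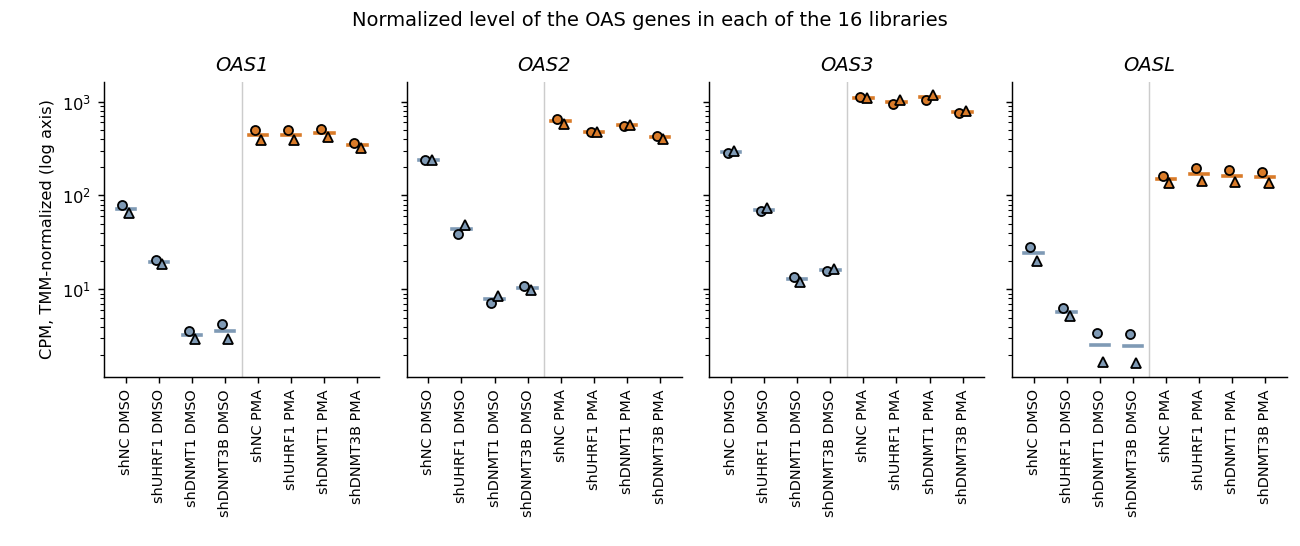
Normalized CPM on a log axis for OAS1, OAS2, OAS3 and OASL in each library. Circles are libraries numbered 1, triangles those numbered 2, and bars the group mean. Blue marks DMSO and orange PMA. The OAS genes step down from shNC over shUHRF1 to shDNMT1 and shDNMT3B in DMSO and lie close together after PMA.

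Treatment with PMA raised each OAS gene in the control line. The log2 fold change was 2.61 ± 0.22 (SE) for OAS1, 1.37 ± 0.16 for OAS2, 1.91 ± 0.17 for OAS3 and 2.62 ± 0.34 for OASL, that is 6.11-fold, 2.59-fold, 3.76-fold and 6.14-fold. All 4 were called higher at an adjusted p under 0.05 (edgeR quasi-likelihood test over 16503 genes). In this comparison 28.4% of all genes tested were called higher and 26.0% lower, and the median of all genes was close to 0 against 2.26 for the members.

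PMA raised the members further in the other lines, from their lower starting levels. In shUHRF1 cells the log2 fold changes were 4.49 ± 0.25 for OAS1, 3.44 ± 0.18 for OAS2, 3.81 ± 0.18 for OAS3 and 4.88 ± 0.38 for OASL. In shDNMT1 cells they were 7.15 ± 0.28, 6.15 ± 0.20, 6.44 ± 0.20 and 6.0 ± 0.41 in the same order, so OAS1 rose 142-fold (95% interval 92.6 to 217). In shDNMT3B cells they were 6.57 ± 0.28, 5.32 ± 0.20, 5.58 ± 0.20 and 5.97 ± 0.41. All 4 members were called higher in each line, where 29.4% (shUHRF1), 28.6% (shDNMT1) and 25.2% (shDNMT3B) of all genes were. In the 4 lines alike, OAS2 gained less than OAS1 and OAS3, and OAS1 gained most of the clustered genes.

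In DMSO, all 4 members were lower in each hairpin line than in shNC. In the cells labelled shUHRF1, OAS2 was lower by 2.45 on the log2 scale (5.46-fold) and OASL by 2.07 (4.21-fold). OAS3 was lower by 2.05 (4.15-fold) and OAS1 by 1.89 (3.71-fold), with SE of 0.17 to 0.34 for the 4 genes. In those labelled shDNMT1, OAS2 was lower by 4.92 (30.4-fold), OAS3 by 4.52 (22.9-fold), OAS1 by 4.47 (22.1-fold) and OASL by 3.25 (9.51-fold). In those labelled shDNMT3B, OAS2 was lower by 4.51 (22.8-fold), OAS1 by 4.33 (20.2-fold), OAS3 by 4.18 (18.1-fold) and OASL by 3.29 (9.75-fold). In both DNMT lines, the gap to shNC was widest for OAS2 and narrowest for OASL. The 95% interval of OASL (-4.06 to -2.44 and -4.10 to -2.47) reached above those of the other members. All 4 were called lower in each line, among 1.15% of all genes called lower in shUHRF1, 3.39% in shDNMT1 and 2.89% in shDNMT3B cells. Genes called higher made up 0.17%, 0.57% and 1.62% of all genes in these comparisons. The 3 comparisons share the shNC libraries. No line without a hairpin is among the 16 libraries. Lower OAS RNA in the other lines and higher OAS RNA in shNC can therefore not be told apart.

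Without shNC DMSO replicate 1, the library with globin counts, the log2 fold changes in DMSO were -1.75, -2.44, -2.09 and -1.81 for OAS1, OAS2, OAS3 and OASL in shUHRF1 cells, -4.32, -4.91, -4.55 and -2.98 in shDNMT1 cells, and -4.19, -4.50, -4.21 and -3.02 in shDNMT3B cells. The call of OASL in shUHRF1 cells was lost without that library (adjusted p = 0.074), without shUHRF1 DMSO replicate 1 (-2.22, adjusted p = 0.096) and without shUHRF1 DMSO replicate 2 (-1.95, adjusted p = 0.063).

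After PMA, the members differed little between the hairpin lines and shNC. In shUHRF1 cells the log2 fold changes were -0.01 ± 0.21 for OAS1, -0.39 ± 0.16 for OAS2, -0.16 ± 0.16 for OAS3 and 0.19 ± 0.31 for OASL. The edgeR test called 0 of the 4, DESeq2 called 0, and 1 (OAS2) had an unadjusted p under 0.05. OAS2 was called lower with the replicate number as a block (adjusted p = 0.04), where 6.88% of all genes were called lower against 1.65% lower and 2.04% higher without the block. In shDNMT1 cells they were 0.07 ± 0.21, -0.14 ± 0.16, 0.01 ± 0.16 and 0.13 ± 0.31, with 0 of 4 called by edgeR, 0 by DESeq2 and 0 at an unadjusted p under 0.05, beside 8.5% of all genes called higher and 6.35% lower. The 95% interval of the difference ran from -0.33 to 0.36 for OAS3 and from -0.55 to 0.81 for OASL.

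In the PMA-treated cells labelled shDNMT3B, OAS2 was lower by 0.57 ± 0.16 (edgeR, adjusted p = 0.027) and OAS3 by 0.51 ± 0.16 (adjusted p = 0.041). OAS1 had -0.38 ± 0.21 (adjusted p = 0.24) and OASL 0.07 ± 0.31 (adjusted p = 0.91). Thus 2 of 4 were called lower by edgeR, where 9.05% of all genes were called lower and 11.3% higher. With the replicate block OAS1 was called too (adjusted p = 0.013), beside 19.5% of all genes called lower. Leaving out any 1 of the 4 libraries compared ended both calls without the block: for OAS2, the adjusted p was 0.17 and 0.067 without shNC PMA replicate 1 and 2, and 0.11 and 0.16 without shDNMT3B PMA replicate 1 and 2. For OAS3 these were 0.16, 0.14, 0.21 and 0.14.

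**Figure D2:**
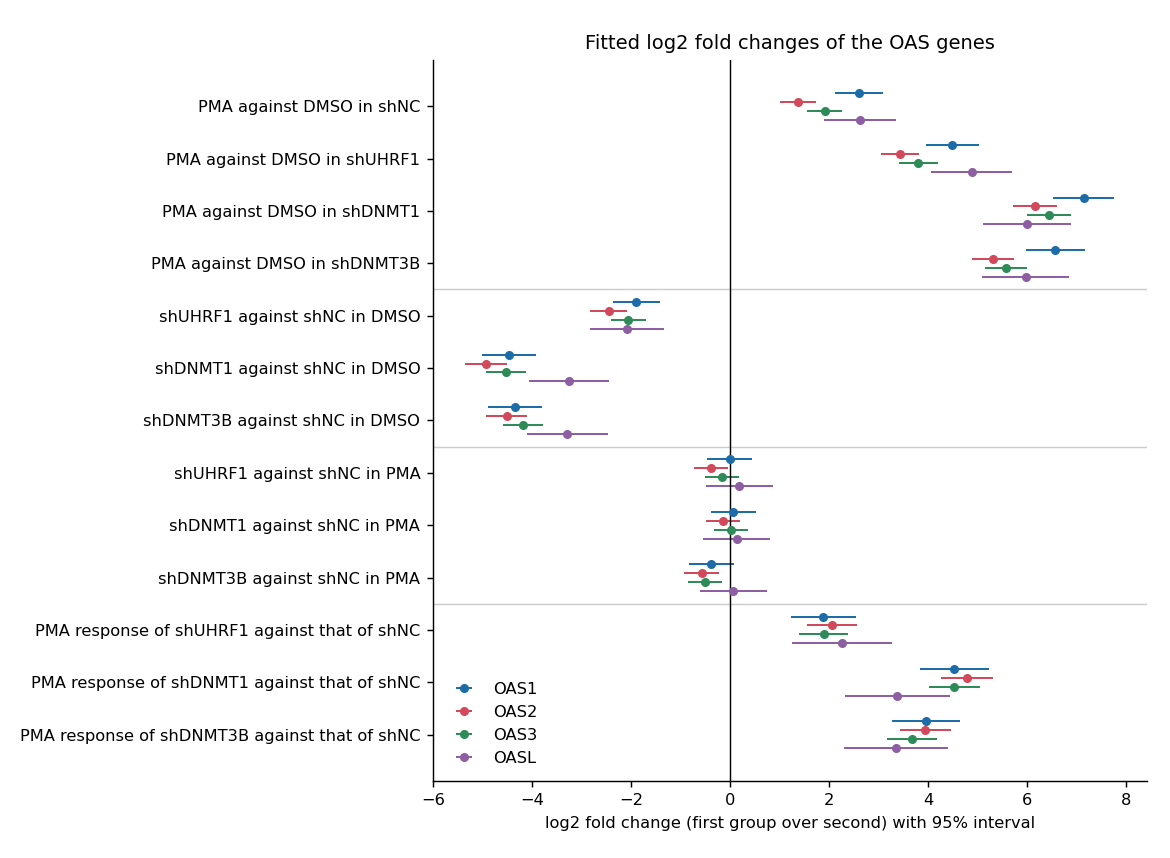
Fitted log2 fold changes of the OAS genes in the 13 comparisons, with 95% intervals from the edgeR fit of all 16 libraries. In DMSO the OAS genes lie between -4.92 and -1.89, and after PMA the OAS genes lie between -0.57 and 0.19.

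The difference of the PMA response between a hairpin line and shNC equals the difference between the lines after PMA minus that in DMSO. It was 1.88 ± 0.30 for OAS1, 2.06 ± 0.23 for OAS2, 1.90 ± 0.23 for OAS3 and 2.26 ± 0.46 for OASL in shUHRF1 cells. In shDNMT1 cells it was 4.53 ± 0.32, 4.78 ± 0.24, 4.53 ± 0.24 and 3.38 ± 0.49, and in shDNMT3B cells 3.96 ± 0.32, 3.95 ± 0.24, 3.67 ± 0.23 and 3.35 ± 0.49. All 4 members were called in each line, among 0.739%, 5.64% and 5.08% of all genes called higher. The DMSO term was the larger in size for every member in each line: for OAS1 in shDNMT1 cells, 0.07 after PMA minus -4.47 in DMSO. For OAS2 the PMA term offset part of it, with -0.39 minus -2.45 in shUHRF1 and -0.57 minus -4.51 in shDNMT3B cells. In shUHRF1 cells, OAS2 kept its call without any 1 library, while the other calls depended on single libraries: without shNC PMA replicate 2 only OAS2 was called, and without shNC DMSO replicate 1, shNC PMA replicate 1, shUHRF1 DMSO replicate 1 or shUHRF1 PMA replicate 1 only OAS2 and OAS3. All 4 were called in each of these with the replicate block. The share of all genes called in these blocked fits is not given here, so that count cannot be set beside it. In shUHRF1 cells after PMA, the block raised the share of all genes called lower from 1.65% to 6.88%.

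Per length of main transcript, OAS1, OAS2 and OAS3 made up similar parts of the family in DMSO, and PMA shifted the make-up to OAS1. The parts depend on the length used. The counts cover whole genes, whose annotated exons together span 13021 bases in OAS1, 11233 in OAS2, 18045 in OAS3 and 6319 in OASL. Of the summed CPM per kb of main transcript, OAS1 held 30.1% ± 2.64 (SD, n = 2), OAS2 34.9% ± 1.26, OAS3 30% ± 2.35 and OASL 4.99% ± 0.971 in shNC cells in DMSO. After PMA the shares were 43.9% ± 2.79, 21.7% ± 0.464, 27.1% ± 2.46 and 7.35% ± 0.140. The OAS1 share lay between 43.9% and 47.0% in the 4 PMA groups and between 28.5% and 35.5% in the 4 DMSO groups. OASL, a minor part in shNC cells in DMSO, held 11.9% ± 4.74 in shDNMT1 and 9.67% ± 3.5 in shDNMT3B cells in DMSO, where its counts were fewest and its libraries far apart. The summed level went from 147 CPM per kb in shNC to 33.8, 6.41 and 7.65 in shUHRF1, shDNMT1 and shDNMT3B cells in DMSO, and was 464 to 623 in the PMA groups.

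**Figure D3:**
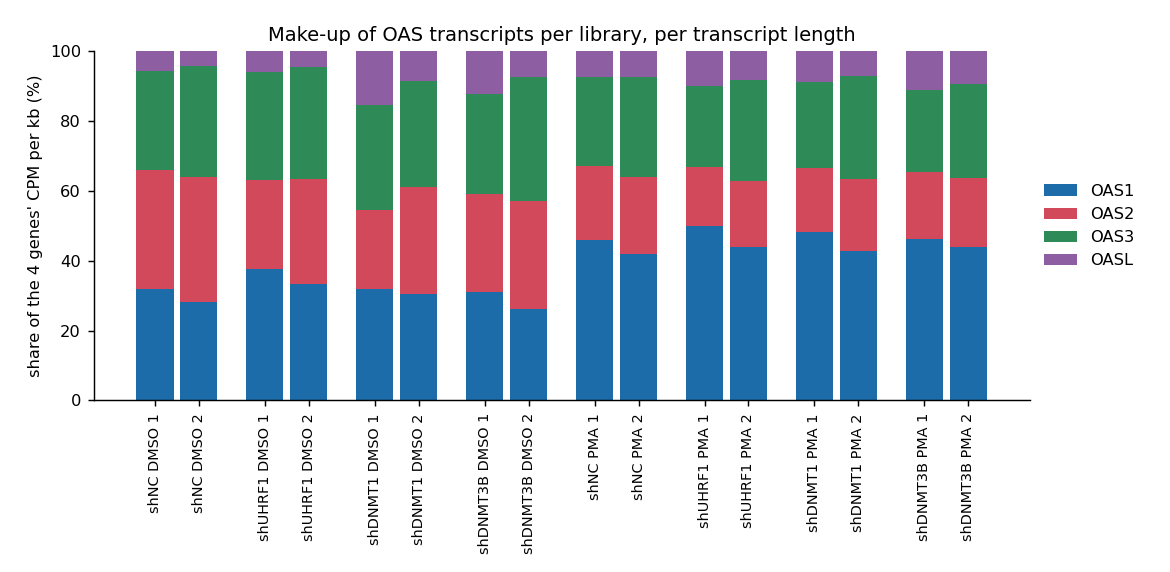
Share of each member in the family's summed CPM per kb of main transcript, one bar per library. The OAS1 part is larger in all 8 PMA libraries than in any of the 8 DMSO libraries, and the OASL part is widest in replicate 1 of shDNMT1 and shDNMT3B in DMSO.

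Ordered by mean level, the 8 groups ran from shDNMT1 or shDNMT3B in DMSO up to the PMA groups for every member. For OAS2, no group overlapped the next in any of the 7 steps. For OAS3, 1 step overlapped, between shNC and shDNMT1 after PMA. For OAS1, 3 steps overlapped: shDNMT1 with shDNMT3B in DMSO, and shUHRF1, shNC and shDNMT1 in turn after PMA. For OASL, 4 did, namely the same DMSO pair and every step among the PMA groups.

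Among 3 genes linked to 2-5A, PDE12 was the one that passed the test in any of the 13 comparisons, in 2 of them, without the replicate block. PDE12, a phosphodiesterase that degrades 2-5A, was at 24.0 and 30.7 CPM in shNC cells in DMSO and 40.6 and 47.9 after PMA (0.69 ± 0.28, adjusted p = 0.052). Against shNC after PMA it was lower by 1.1 ± 0.28 in shDNMT3B cells (edgeR, adjusted p = 0.017). With PMA it rose by 0.87 in shUHRF1 cells (edgeR, adjusted p = 0.019). ABCE1, an ATP-binding protein known for ribosome recycling, had -0.06 ± 0.18 with PMA in shNC (adjusted p = 0.81), and AKAP7, a kinase anchor with a domain that cleaves 2-5A, had -0.47 ± 0.23 (adjusted p = 0.10). In DMSO, the 3 genes had log2 fold changes from -0.39 to -0.13 in shUHRF1, from -0.26 to -0.11 in shDNMT1 and from -0.68 to -0.40 in shDNMT3B cells. There, edgeR called 0 of 3 in each line, with 0, 0 and 3 at an unadjusted p under 0.05, and with the replicate block 0, 0 and 3 were called lower. With the block, PMA raised PDE12 and lowered AKAP7 in shNC cells. Against shNC after PMA, AKAP7 was higher and PDE12 and ABCE1 lower in shDNMT1 cells, and PDE12 and ABCE1 lower in shDNMT3B cells. The block also called 1 of the 3 higher with PMA in shUHRF1, shDNMT1 and shDNMT3B cells. For the PMA response against that of shNC, it called 1 of the 3 higher in shDNMT1 and 1 in shDNMT3B cells.

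Interferon genes themselves were barely counted. Of 14 ligand genes, 12 had no count in any library, IFNL1 had 8 counts in all, and IFNB1, the interferon-beta gene, had 138 counts over the 16 libraries. IFNB1 had 4 and 8 counts in shNC, 5 and 4 in shUHRF1, 0 and 1 in shDNMT1 and 2 and 2 in shDNMT3B cells in DMSO. After PMA these were 10 and 3, 16 and 6, 36 and 22, and 15 and 4. IFNB1 was called higher with PMA in shDNMT1 (adjusted p = 2.3e-04) and shDNMT3B cells (adjusted p = 0.028) and in shDNMT1 against shNC after PMA (adjusted p = 0.048). Its PMA response was also called larger in shDNMT1 than in shNC cells (adjusted p = 0.021). The lower counts of shDNMT1 against shNC in DMSO had an unadjusted p of 0.010 and did not pass the edgeR test over all genes (adjusted p = 0.13, and 0.057 with the replicate block).

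Most receptor and ISGF3 genes rose with PMA, but few differed between the lines in DMSO. Of 13 tested in this list of 14, 12 rose and 1 fell with PMA in shNC cells (median 0.98). Examples are IFNGR2, a chain of the interferon-gamma receptor (3.11), JAK1 (1.5) and IRF7, a factor that amplifies interferon induction (1.54), while IRF8, a regulator of the monocyte lineage, was lower (-2.99). In DMSO 2 of 13 were called lower in each hairpin line, and they were IRF7 and IRF9 each time. IRF7 had -1.78, -3.61 and -2.62 in shUHRF1, shDNMT1 and shDNMT3B cells, and IRF9, the DNA-binding subunit of ISGF3, had -0.62, -1.93 and -1.71. The list medians in DMSO were -0.26, -0.19 and -0.31, and with the replicate block 4, 4 and 6 genes were called lower. After PMA, 0, 2 and 3 genes were called lower and 0, 2 and 2 higher by edgeR (2, 2 and 3 lower and 4, 4 and 5 higher with the block), and 4 had an unadjusted p under 0.05 in shUHRF1 cells.

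Among sensors of foreign RNA and DNA, 5 of 9 tested were lower in the hairpin lines than in shNC in DMSO. Of 9 tested in the list of 10, 6 rose and 1 fell with PMA in shNC cells (median 1.06). By adjusted p the first of those higher were RIGI, which encodes RIG-I (3.38), and IFIH1, which encodes MDA5 (2.62), while STING1, the adaptor of the DNA sensor cGAS, fell by 3.48. In DMSO the same 5 of 9 were called lower in each hairpin line (medians -1.03, -1.64 and -1.05), the fifth being ADAR, an RNA-editing enzyme. MAVS, the adaptor of RIG-I and MDA5, had 0.25, 0.44 and 0.21 and did not pass the test (adjusted p = 0.60, 0.23 and 0.58). With the replicate block, 6, 6 and 5 were called lower and 0, 1 and 0 higher, MAVS being the one higher (adjusted p = 0.032). RIGI had -1.59, -2.87 and -2.39, IFIH1 -1.1, -1.64 and -1.99, DHX58 (LGP2) -1.90, -3.22 and -2.01, and EIF2AK2, the RNA-activated kinase PKR, -1.03, -2.05 and -2.38 in shUHRF1, shDNMT1 and shDNMT3B cells. After PMA, edgeR called 4 of 9 lower in shDNMT3B cells, RIGI (-0.89) and IFIH1 (-1.0) among them, and 1, STING1, higher (1.55), and in shDNMT1 cells STING1 alone was called (1.99). With the replicate block, 6 were called lower in shDNMT3B cells, and 2 higher and 1 lower in shDNMT1 cells.

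Of the 6 feedback regulators, 5 rose and 1 fell with PMA in shNC cells. USP18, which removes ISG15 and blocks the type I receptor, had a log2 fold change of 2.60, SOCS3 of 3.63, IRF2 of 2.25, PTPN6 of 1.20 and PIAS1 of 0.43. SOCS1 fell from 30 and 8 counts to 2 and 2. In DMSO, USP18 had -2.29, -4.07 and -3.65 and IRF2 -0.71, -0.90 and -0.96 in shUHRF1, shDNMT1 and shDNMT3B cells, called lower in each, and PTPN6 was called lower in shDNMT3B cells (-0.69). After PMA, 0, 2 and 3 of the 6 were called lower and 0, 0 and 1 higher by edgeR (0, 2 and 3 lower and 0, 2 and 1 higher with the block), and 0 had an unadjusted p under 0.05 in shUHRF1 cells. SOCS3, an inhibitor of cytokine receptors, was lower in shDNMT1 (-2.39) and shDNMT3B cells (-2.31). SOCS1 was called higher in shDNMT3B cells, with 15 and 10 counts against 2 and 2 in shNC.

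Interferon-induced effectors outside the family rose with PMA and were lower in the hairpin lines than in shNC in DMSO. Of 19 tested, 16 rose with PMA in shNC cells (median 2.03), and the first 4 by adjusted p were RSAD2, the antiviral enzyme viperin (5.98), ISG20, an exonuclease (3.85), IFIT2 (2.88) and IFIT1 (3.70), which bind foreign RNA. In DMSO, 15 of 19 were called lower in shUHRF1, 19 in shDNMT1 and 19 in shDNMT3B cells. The medians were -2.06, -3.63 and -3.41, beside -2.06, -4.49 and -4.26 for the OAS members and between -0.04 and -0.02 for all genes. With the replicate block these counts were 18, 19 and 19. IFI44 had -2.41, -5.45 and -5.80, MX2, an antiviral GTPase, -2.23, -3.56 and -3.90, and IFIT2 -2.15, -3.23 and -3.61 in shUHRF1, shDNMT1 and shDNMT3B cells. After PMA, 2 of 19 were lower in shUHRF1 cells (RSAD2 -0.90 and IFIT2 -0.63), 1 higher in shDNMT1 cells (IFIT2 0.51), and 4 lower and 1 higher in shDNMT3B cells, with medians of -0.13, 0.17 and -0.35. With the replicate block these were 3 lower and 2 higher, 1 lower and 6 higher, and 10 lower and 2 higher. RSAD2 (-1.76) and HERC5, a ligase of ISG15 (-0.87), were among those lower in shDNMT3B cells, and MX1 was the one higher (1.78).

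**Figure D4:**
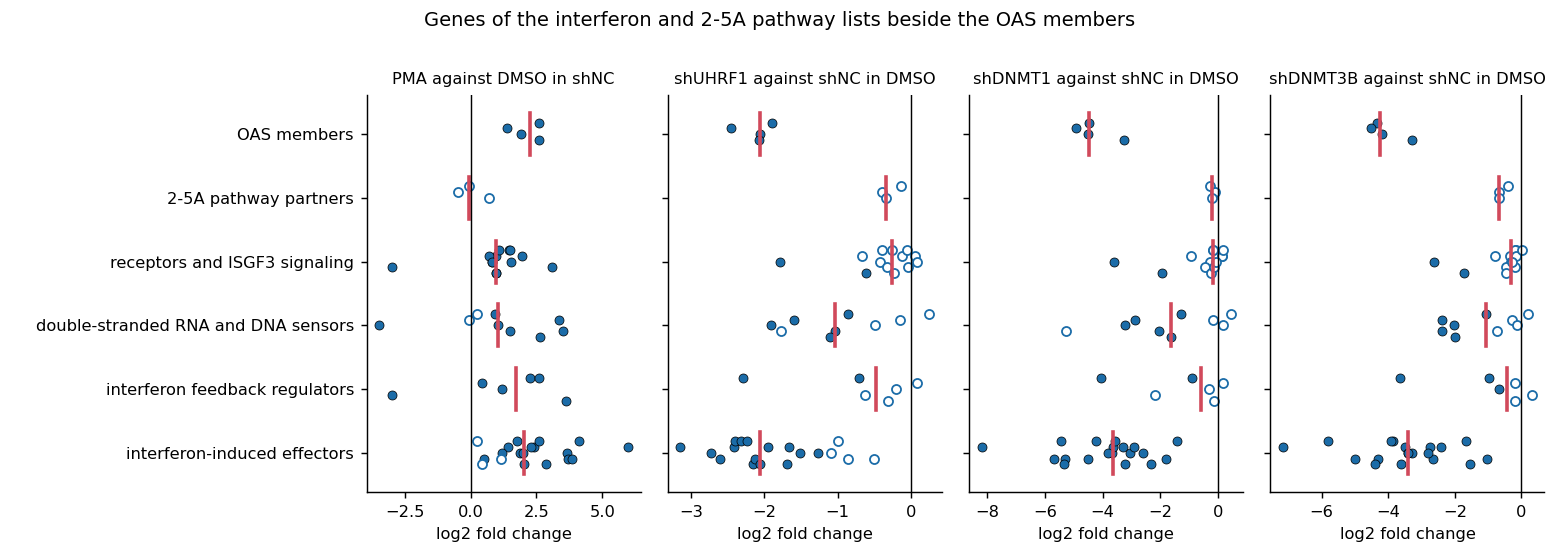
Log2 fold changes of the OAS members and of the genes in 5 pathway lists, in 4 comparisons. Filled points passed an adjusted p under 0.05, open points did not, and red bars are medians. In DMSO the OAS members and the interferon-induced effectors lie to the left in each hairpin line, and the 2-5A pathway partners lie between -0.68 and -0.11.

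The counted genes around the OAS loci were not called lower with them in DMSO, apart from one under the replicate block. RPH3A, 6.975 kb before OAS1, had 4 counts in 1 library and none elsewhere. DTX1, RASAL1 and CFAP73, 45.0 to 138 kb beyond OAS2, had at most 1 count in any DMSO library. After PMA, RASAL1, a Ras regulator, had 43 and 18 counts in shNC cells, against none in DMSO. These 4 genes were too little counted in DMSO to show a lower level. Of 8 neighbors tested, 6 had counts in DMSO, and they lay from 93.6 kb (P2RX7) to 487 kb (RPL6) from the locus. Among them were PTPN11, a phosphatase gene 396 kb before the cluster, and SPPL3, an intramembrane protease gene 113 kb from OASL. Their log2 fold changes against shNC in DMSO ran from -0.34 to 0.20 in shUHRF1, -0.81 to 0.43 in shDNMT1 and -0.16 to 0.83 in shDNMT3B cells. The edgeR test called 0 of these 6 in each line, with 0, 0 and 1 at an unadjusted p under 0.05, and with the replicate block P2RX4 was called lower in shDNMT1 cells and P2RX7 and RPL6 higher in shDNMT3B cells. P2RX7, an ATP-gated channel of macrophages on the other side of OASL, rose with PMA in shNC cells from 13.8 and 20.8 to 83.1 and 125 CPM. With PMA, 5 of the 8 neighbors tested were called higher and 1 lower in shNC cells. Of all genes, 28.4% were called higher and 26.0% lower there. In shUHRF1, shDNMT1 and shDNMT3B cells 5, 4 and 5 neighbors were called higher and 1 lower in each. Of all genes, 29.4%, 28.6% and 25.2% were called higher in these lines. With the replicate block, 6 were called higher in shUHRF1 cells.

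Over the 16 libraries, the genes most like each member in log2 CPM were other interferon-induced genes. Among 13628 genes with a mean of at least 1 CPM, the nearest to OAS1 were IFIT1 (Pearson r 0.997), IFI16 (0.995), EPSTI1 (0.995), USP18 (0.994) and IFI44 (0.994). For OAS2 they were IFITM1 (0.994), IFI44L (0.993), SIGLEC1 (0.992), IFI44 (0.99) and EPSTI1 (0.987), and for OAS3 PARP9 (0.996), EPSTI1 (0.996), IFI44 (0.995), HERC5 (0.993) and IFIT1 (0.992). OASL was closest to IFIT1 (0.993), MX2 (0.992), ISG15 (0.99), IFI6 (0.99) and IFI16 (0.989). These values rest on the steps between 8 groups, and the libraries share their totals and scaling. Between members, r was 0.963 to 0.996 over all libraries and 0.949 to 0.996 over the 8 DMSO libraries. Over the 8 PMA libraries it was 0.87 between OAS2 and OAS3, 0.66 between OAS1 and OAS2, and 0.58 between OAS1 and OAS3. For OASL it was 0.67 with OAS1, -0.02 with OAS2 and -0.20 with OAS3.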

How the data were processed

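Libraries were made from poly(A) RNA of THP-1 lines with a stranded mRNA kit. Alignment by the authors was to hg38 (STAR 2.4.0b), and the submitters' notes on processing also list HTSeq 0.6.1p1, Cufflinks 2.1.1 and edgeR. The deposited table holds whole-number gene counts of 16 libraries, with 0 further columns left unused. The annotation release and the strand setting of the counting are not given in the sources used here. Symbols of 60357 of 60676 genes came from GENCODE release 44.

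Counts were tested in edgeR 4.0.16 (R 4.3.3) with TMM scaling, filterByExpr (minimum count 10, minimum total 15), and 1 robust quasi-likelihood model holding the 8 groups. The p-values of a comparison were adjusted over its 16503 genes (Benjamini-Hochberg), and genes were called under 0.05 with no limit on the fold change. SE were derived from the F statistic, intervals are 95%, and the prior count of log2 CPM was 2. There were 13 comparisons. Common dispersion fell from 0.0439 to 0.0115 when replicate number entered as a block. The numbers pair the libraries: deviations from the group mean correlated at 0.22 to 0.508 between same-numbered libraries in 28 of 28 pairs of groups. Blocked values stand beside named values whose call they change. Alternatives were DESeq2 1.42.0, upper-quartile scaling, no filter, only the groups compared, DEGES normalization (3 rounds) with the exact test, the block, a fold limit, and leaving out each library. The fit was also run on simulated counts. These were drawn without an effect of replicate number, so that run does not cover the pairing of the libraries.

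The members and all 6 lists (66 genes), the markers and the rule for named genes were chosen with earlier results of these data known. The rule names each member, up to 4 genes of a list by adjusted p, lists of 6 or fewer whole, the 5 genes most correlated with each member, and the 3 nearest protein-coding genes on each side of each locus. Some genes of the lists and beside the loci are not reported here, and list counts leave them out. MAVS and ADAR were named after their values were seen. Differences are changes in counts per library, so a shift of total RNA per cell was not measured.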

Additional observations from a re-analysis of the deposited data

Results flagged for a closer look

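The PMA response of every OAS gene differed between each hairpin line and shNC by the interaction term of the edgeR fit, at an adjusted p under 0.05. In log2 units the difference was 1.88 for OAS1, 2.06 for OAS2, 1.90 for OAS3 and 2.26 for OASL in shUHRF1 cells, 4.53 for OAS1, 4.78 for OAS2, 4.53 for OAS3 and 3.38 for OASL in shDNMT1 cells, and 3.96 for OAS1, 3.95 for OAS2, 3.67 for OAS3 and 3.35 for OASL in shDNMT3B cells. All 3 sets share the shNC libraries, and the members were chosen with such results known. The fold changes between the lines after PMA ran from -0.57 to 0.19, and those in DMSO from -4.92 to -1.89.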

How the results depend on the processing

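Over all 13 comparisons, 197 recomputed counts of called members stayed within 1.5 times the count of the 8-group fit and 16 did not. Of the single log2 fold changes, 860 were counted as kept, 36 lost the call, 3 gained one, 15 changed sign and 2 moved by more than the replicate spread. Those counted as kept had the same direction and call, or came from the libraries of 1 replicate number alone. The latter have no adjusted p and were kept when closer to the fit than the SD of both numbers' values. That rule is nearly always met, and it did not check the sign for members not called. The 4 calls of the PMA response in each line, and those in DMSO in shDNMT1 and shDNMT3B cells, held in number under every alternative run. For shUHRF1 against shNC in PMA, 0 became 1 with the replicate block. For shDNMT3B against shNC in PMA, 2 became 1 with the exact test after DEGES normalization and with only the groups compared, and 0 without the filter, with upper-quartile factors, under the fold limit, and on leaving out any 1 library (0 to 0), against 2 to 3 on leaving out 1 library with the block, an alternative added after seeing the data. For the shUHRF1 difference of the PMA response, 4 became 0 with only the groups compared (adjusted p = 0.067 to 0.083), and 1 to 3 on leaving out 1 library. For shUHRF1 against shNC in DMSO, 4 became 3 with only the groups compared, where OASL had an adjusted p of 0.064. Fewer libraries enter those fits. The 15 sign changes counted all lay near 0 in PMA, on leaving out 1 library. The ranges were -0.192 to 0.178 for OAS1 and -0.0514 to 0.40 for OASL in shUHRF1 cells. In shDNMT1 cells they were -0.101 to 0.253, -0.0613 to 0.0854 and -0.0935 to 0.328 for OAS1, OAS3 and OASL. In shDNMT3B cells the range was -0.142 to 0.247 for OASL. With the block as well, the values that changed sign were 0.0343 and 0.0340 for OAS1 in shUHRF1, -0.0401 and -0.0447 for OAS3 in shDNMT1 and -0.0553 for OASL in shDNMT3B cells. Outside that count, the sign also changed in PMA in the libraries of 1 number alone. These were OAS3 in shDNMT1 cells (-0.083, number 1) and OASL in shDNMT3B cells (-0.0058, number 2). The replicate block changed no other call of a member than those of OAS2 in shUHRF1 and OAS1 in shDNMT3B cells after PMA. With 2 libraries a group and 32 to 63 OASL counts per library in shDNMT1 and shDNMT3B cells in DMSO, small differences of OASL in DMSO were not detectable.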
